A study of Mus musculus with 6 samples.

Results

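A set of 10 genes that mark the pyramidal neurons of hippocampal fields CA2 and CA3 were followed in bulk hippocampal RNA from adult mice that express a mutant BRAF kinase in excitatory neurons. They were taken from the deposited table by symbol: Rgs14, Amigo2, Pcp4, Map3k15 and Necab2 for CA2, and Bok, Cpne4, Iyd, Coch and Nectin3 for CA3. All 10 were among the 20620 genes listed, and all 10 were among the 20604 that passed the filter on low counts and were tested. The 3 control mice had the genotype Braf Q241R Neo/+, in which the mutant allele carries a Neo cassette, and were 31 to 32 weeks old. The 3 n-Braf mice had the genotype Braf Q241R/+ with a CaMKII-Cre transgene and were 32 to 34 weeks old. All 6 were males on a C57BL/6J background, every mouse gave 1 hippocampal library, and every mouse carried the Q241R allele. Cre from a CaMKII promoter acts in excitatory neurons of the forebrain at large, so it is not particular to CA2 or CA3. The genotype label names no particular Cre line, and the extent of recombination in CA2 and CA3 was not examined here. The Cre transgene and the state of the Neo cassette differ together between the groups, and their effects cannot be told apart from that of the mutant protein. Hippocampus without the allele was not analysed here.

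The hippocampus passes signals from dentate granule cells through mossy fibres to CA3 pyramidal neurons, and from there to CA1. CA3 neurons also excite one another and are known for their part in completing stored patterns. CA2 is a small field between CA3 and CA1 that is needed for social memory and whose synapses resist long-term potentiation. Part of that resistance is set by RGS14, a scaffold that binds G proteins, RAS and RAF and holds back ERK signalling, the pathway in which BRAF acts. The comparison addresses whether RNA of these field markers differs when the mutant is expressed in excitatory neurons.

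No difference in the 10 markers passed the test. By edgeR's quasi-likelihood test 0 of 10 had an adjusted p under 0.05, where the background was 0% of all genes, and DESeq2, which called 79 of all genes, also called 0 of 10. The authors' deposited table gives an adjusted p under 0.05 to 29 genes, and 0 of these are among the 10. At an unadjusted p under 0.05 there were 2 of 10, against 6.82% of all genes tested. These were both CA3 markers: Coch, lower in n-Braf, and Bok, higher in n-Braf. The same 2 genes were those in which the 3 n-Braf libraries did not overlap the 3 controls, against 11.5% of all genes tested. In each field 2 of 5 markers had a positive log2 fold change and 3 of 5 a negative one. The median log2 fold change was -0.165 for CA2 and -0.092 for CA3, beside -0.0042 over all genes tested. The CA2 median was 0.077 without controls 1 and 2, 0.101 with choroid plexus markers as a covariate and -0.038 without n-Braf 1. The first 2 of these fits are not independent, because controls 1 and 2 were the libraries high in those markers. The CA3 median was -0.007 without n-Braf 2. In bulk tissue, fewer cells of a type and less RNA per cell cannot be told apart.

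The libraries held between 25227112 and 31832245 assigned counts. Over the 6 libraries the counts of a marker ranged from 26.41 (Map3k15 in n-Braf 2) to 1984 (Cpne4 in n-Braf 3). The level of Braf RNA, in CPM (counts scaled to library size), was 116, 123 and 116 in the controls against 185, 184 and 205 in n-Braf. It was higher in every library labelled n-Braf than in every control (log2 fold change 0.69, SE 0.07, unadjusted p = 2.84e-06, adjusted p = 0.0533). The adjusted p of Braf was 6.25e-14 by DESeq2 and 2.13e-08 in the authors' deposited table, both past the threshold that the quasi-likelihood test missed. Controls 1 and 2 stood apart in choroid plexus markers, with a summed level over 9 genes of 3540 and 2000 CPM against 89.3 to 137 CPM in the other 4 libraries, and 0 of the 9 were at 0 counts in any library. Markers of forebrain pyramidal neurons (Neurod6, Slc17a7, Camk2a, Zbtb20 and Neurod2) were present in every library at a summed 3480 to 4620 CPM. CPM here are scaled by trimmed means of M values.

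Promoter windows from RefSeq (build GRCm38.p6) show the DNA just before the start of the 2 markers whose groups did not overlap, Bok and Coch, and of Necab2. They are the 250 bases before the RefSeq start, all on the plus strand: chr1:93685325-93685574 for Bok, chr12:51593091-51593340 for Coch and chr8:119446469-119446718 for Necab2. Necab2 is shown because it held the only match among the markers to a motif of a transcription factor family downstream of ERK. Capitals mark that match, TGAGTCA, which begins 169 bases before the start.
Bok: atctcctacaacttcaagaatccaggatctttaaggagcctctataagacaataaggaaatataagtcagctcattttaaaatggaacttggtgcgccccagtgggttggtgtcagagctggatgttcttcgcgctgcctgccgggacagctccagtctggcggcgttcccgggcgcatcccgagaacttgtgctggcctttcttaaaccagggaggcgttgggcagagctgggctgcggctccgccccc
Coch: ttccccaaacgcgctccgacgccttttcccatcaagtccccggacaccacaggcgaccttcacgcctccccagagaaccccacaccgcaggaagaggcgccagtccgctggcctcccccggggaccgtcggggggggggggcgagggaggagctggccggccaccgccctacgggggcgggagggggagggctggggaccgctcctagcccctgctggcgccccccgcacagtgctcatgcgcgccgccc
Necab2: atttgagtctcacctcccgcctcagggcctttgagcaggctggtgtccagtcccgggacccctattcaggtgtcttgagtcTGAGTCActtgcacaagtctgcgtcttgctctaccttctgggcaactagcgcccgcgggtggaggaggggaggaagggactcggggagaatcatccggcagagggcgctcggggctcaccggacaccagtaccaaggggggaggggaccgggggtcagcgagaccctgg

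RefSeq windows were matched by symbol for 8 of the 10 markers, in 9 windows because Cpne4 has 2 starts. Both strands were searched for TGANTCA (bound by AP-1, the FOS and JUN dimers), TGACGTCA (bound by CREB), CCGGAAGT (bound by ETS factors) and GCGTGGGCG (bound by EGR factors). TGANTCA was found in 1 of the 9 windows, that of Necab2, and in 6.75% of the 32851 windows of all genes. The other 3 of these motifs were in 0 of the 9 windows, and in 1.55%, 2.88% and 0.536% of all windows. TATAAA and CCAAT were searched as well. They were found in 1 and 3 of the 9 windows, beside 12.4% and 33.8% of all windows. A motif match is a description of the letters in the window and not evidence of binding. The Bok window had a GC content of 55.2% with 12 CG pairs and the Coch window 74.8% with 24, beside medians of 52.4% and 6 over all windows.

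Among the CA2 markers, Rgs14 (ENSMUSG00000052087, chromosome 13 at 55369732 to 55384687) was at 37.0, 33.1 and 32.4 CPM in controls 1 to 3 and at 31.4, 25.3 and 34.8 CPM in n-Braf 1 to 3. The groups overlapped, because n-Braf 3 lay above controls 2 and 3. The fitted difference was -0.16 on the log2 scale (SE 0.12, 95% interval -0.43 to 0.10, adjusted p = 0.861). Left out of the fit, n-Braf 2, the lowest library, took the value to -0.046, and n-Braf 3 took it to -0.27. The interval thus spans from 0.741 to 1.07 times the control level.

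Amigo2 (chromosome 15 at 97244125 to 97247287) encodes a leucine-rich adhesion protein of the cell surface and is a widely used CA2 marker. It was at 15.0, 16.9 and 15.6 CPM in the controls and at 10.5, 14.7 and 17.1 CPM in n-Braf. One library, n-Braf 1, was below all others, and n-Braf 3 was above all others. The log2 fold change was -0.17 (SE 0.16, 95% interval -0.54 to 0.20, adjusted p = 0.916). The fit that left out n-Braf 1 gave 0.0043.

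Pcp4 (chromosome 16 at 96467606 to 96525793), whose small protein PEP-19 regulates calcium binding by calmodulin, was at 49.2, 38.1 and 42.0 CPM in the controls and at 48.9, 41.7 and 42.5 CPM in n-Braf. The groups covered nearly the same range. With a log2 fold change of 0.04 (SE 0.10, 95% interval -0.20 to 0.28, adjusted p = 0.983), a difference beyond 0.28 in either direction lay outside the interval. In the GENCODE annotation 23.7% of its exon bases are shared with Igsf5, a gene model on the same strand, and its counts in n-Braf 2, control 2 and control 3 were not whole numbers (1324.75, 1020.3 and 1079.87).

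Necab2 (chromosome 8 at 119446719 to 119472640) encodes a neuronal calcium-binding protein that interacts with adenosine and metabotropic glutamate receptors. Its control levels were 29.3, 28.0 and 28.7 CPM, and its n-Braf levels 32.0, 38.2 and 24.4 CPM. The 3 controls lay close together, while n-Braf 1 and n-Braf 2 were above them and n-Braf 3 was below. The coefficient of variation was 2.21% in the controls and 22.0% in n-Braf, beside a counting error of 3.39%. The log2 fold change was 0.14 (SE 0.14, 95% interval -0.18 to 0.46, adjusted p = 0.921). It was -0.026 without n-Braf 2 and 0.29 without n-Braf 3.

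Map3k15 (X chromosome at 159988433 to 160123351), which encodes the stress-activated MAP kinase kinase kinase ASK3, had the lowest level of the 10. It was at 3.06, 2.28 and 1.05 CPM in the controls and at 1.35, 0.818 and 2.01 CPM in n-Braf. Controls 1 and 2 were the highest libraries, and control 3 lay below n-Braf 1 and n-Braf 3. The log2 fold change of -0.62 had a wide interval (SE 0.43, 95% interval -1.59 to 0.35, adjusted p = 0.858). Against control 3 alone it was 0.40 and with the choroid plexus markers as a covariate 0.38, the opposite direction. Controls 1 and 2 are the libraries high in those markers, so these 2 fits are not independent of each other. The part of the markers in the result was not tested. Of the exon bases of Map3k15, 13.9% lie opposite exons of Pdha1, a mitochondrial enzyme gene at 135 CPM in the controls and 144 CPM in n-Braf. The strand setting of the counting is not given in the sources used here, and the counts of Map3k15 were not whole numbers in any library.

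**Figure D1:**
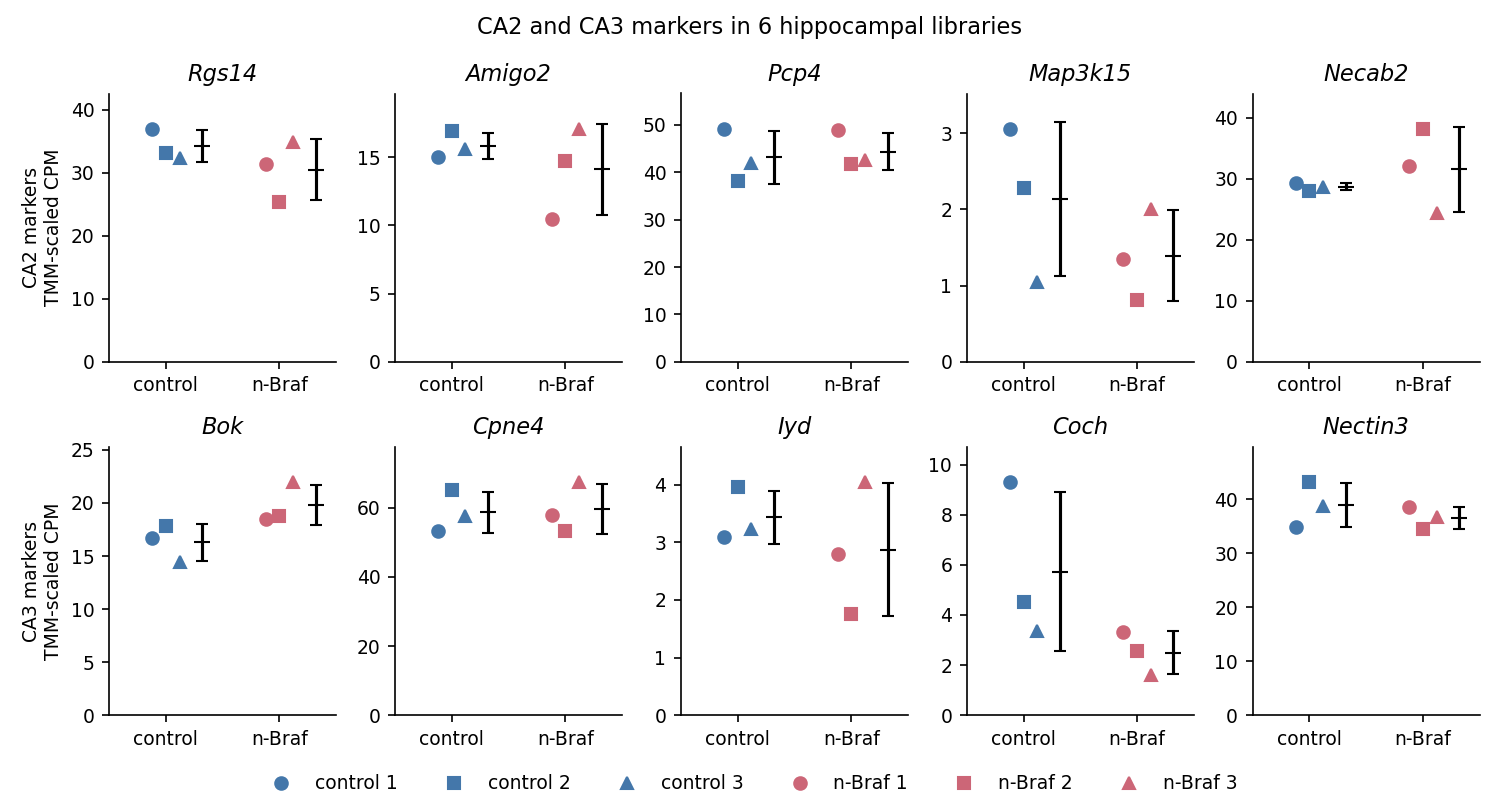
TMM-scaled CPM of the 10 markers in each library, with 1 panel per gene, its own vertical axis from 0, and black bars for mean and SD (n = 3). The groups overlap in 8 panels, n-Braf is higher in Bok (18.5 CPM or more against 17.8 CPM or less), and in Coch control 3 at 3.35 CPM lies just above n-Braf 1 at 3.32 CPM.

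Coch differed most in size among the CA3 markers. The gene (ENSMUSG00000020953, chromosome 12 at 51593341 to 51605771) encodes cochlin, a secreted matrix protein best known from the inner ear. The controls had levels of 9.32, 4.52 and 3.35 CPM in order of number, and the n-Braf libraries 3.32, 2.55 and 1.60 CPM. The groups met at control 3 and n-Braf 1, which differed by less than the counting error of 9.32%. The means were 5.73 ± 3.17 CPM and 2.49 ± 0.860 CPM (SD, n = 3 each), and the log2 fold change was -1.20 (SE 0.39, 95% interval -2.09 to -0.31, unadjusted p = 0.0134, adjusted p = 0.621). In the authors' deposited table Coch had an unadjusted p of 0.00842 and an adjusted p of 0.512.

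The size of the Coch difference depended on single libraries. Over the 18 alternatives the log2 fold change ran from -1.471 to -0.286, negative in all. It was largest without control 3 (-1.471, unadjusted p = 0.00342), and DESeq2 gave an unadjusted p of 0.000589 with an adjusted p of 0.0855. Without control 1 the log2 fold change was -0.66 (unadjusted p = 0.0559), and without controls 1 and 2 it was -0.42 (unadjusted p = 0.305). Leptomeningeal markers, genes of the membranes that cover the brain, were highest and lowest in the same libraries as Coch. Their summed level over 6 of 6 genes was 185, 91.8 and 71.7 CPM in the controls and 90.3, 68.5 and 29.2 CPM in n-Braf, so control 1 was highest and n-Braf 3 lowest in both. The order between these ends differed in the list's mean log2 CPM, centred over the 6 libraries. That mean was 1.181, -0.217 and -0.096 in the controls and 0.356, -0.048 and -1.176 in n-Braf. With the mean log2 CPM of that list as a covariate Coch was at -0.70 (unadjusted p = 0.0112), and with that of the choroid plexus list at -0.29 (unadjusted p = 0.538). Of the 6 genes 5 had negative log2 fold changes and 1, Slc6a13, a positive one (0.11), and 0 of the 6 were at 0 counts in any library. Their part in the Coch result beyond these fits was not tested.

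Bok (ENSMUSG00000026278, chromosome 1 at 93685660 to 93695764) encodes a member of the BCL-2 family that acts in cell death and at the endoplasmic reticulum. It was at 16.7, 17.8 and 14.4 CPM in the controls and at 18.5, 18.8 and 22.0 CPM in n-Braf. Every n-Braf library was above every control, but control 2 and n-Braf 1 differed by less than the counting error of 4.38%. The means were 16.3 ± 1.76 and 19.8 ± 1.91 CPM (SD, n = 3 each). The fitted ratio was 1.21, or 0.28 on the log2 scale (SE 0.11, 95% interval 0.02 to 0.53, unadjusted p = 0.0381, adjusted p = 0.719). The authors' deposited table gives Bok an unadjusted p of 0.0658, and scaling by library size alone gave 0.0506. With age in weeks as a covariate the log2 fold change was 0.081 (unadjusted p = 0.577). It was 0.46 against control 3 alone, 0.19 without control 3 and 0.19 without n-Braf 3.

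Cpne4 (chromosome 9 at 104547286 to 105034544), which encodes a calcium-dependent phospholipid-binding copine, was at 53.4, 65.2 and 57.5 CPM in the controls and at 58.0, 53.4 and 67.5 CPM in n-Braf. Its groups covered the same range (log2 fold change 0.02, SE 0.10, 95% interval -0.21 to 0.26, adjusted p = 0.989). Nectin3 (chromosome 16 at 46387706 to 46498525) encodes an adhesion molecule of the junctions between mossy fibre terminals and CA3 dendrites. It was at 34.9, 43.2 and 38.7 CPM in the controls and at 38.5, 34.5 and 36.6 CPM in n-Braf. All 3 n-Braf libraries lay at or below control 3, and control 1 lay among them (log2 fold change -0.09, SE 0.09, 95% interval -0.30 to 0.11, adjusted p = 0.917). For these 2 markers and Pcp4 the 95% intervals lay within 0.30 of 0 on the log2 scale.

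Iyd (chromosome 10 at 3540240 to 3554877) encodes iodotyrosine deiodinase, which recovers iodide from thyroid hormone precursors. It was at 3.10, 3.96 and 3.23 CPM in the controls and at 2.79, 1.76 and 4.05 CPM in n-Braf. Both the lowest and the highest of the 6 libraries were n-Braf. The log2 fold change was -0.26 (SE 0.29, 95% interval -0.92 to 0.39, adjusted p = 0.930). The fit that left out n-Braf 2 gave -0.0071.

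**Figure D2:**
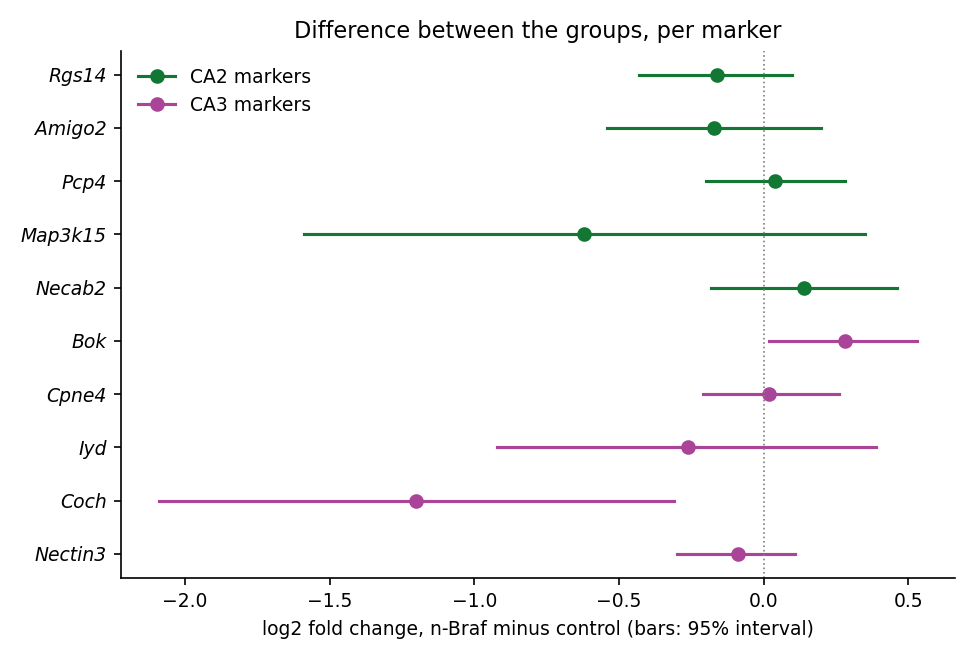
Log2 fold change (n-Braf minus control) of each marker, with bars for the 95% interval of edgeR's quasi-likelihood fit. The intervals of Bok (0.02 to 0.53) and Coch (-2.09 to -0.31) do not cross 0, and those of Map3k15, Iyd and Coch are the widest.

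Levels can be set side by side only per length, here as CPM per kb of exon in the GENCODE annotation, given as the mean over the 6 libraries. Pcp4 was highest at 42.6 CPM per kb, followed by Necab2 at 14.4, Cpne4 at 10.8, Bok at 9.80, Rgs14 at 7.63, Amigo2 at 4.73, Nectin3 at 2.96, Iyd at 1.94, Coch at 1.37 and Map3k15 at 0.405. The range over libraries of Pcp4 (37.1 to 48.0) was clear of that of Necab2 (11.6 to 18.2). Necab2, Cpne4 (9.71 to 12.3), Bok (7.83 to 12.0) and Rgs14 (5.97 to 8.73) formed a series in which each overlapped the next. Rgs14 was clear of Amigo2 (3.32 to 5.41), which overlapped Nectin3 (2.71 to 3.39), and Nectin3 was clear of Iyd (1.08 to 2.50). Coch (0.534 to 3.11) overlapped both Nectin3 and Iyd above it and Map3k15 (0.188 to 0.704) below it. The CA2 markers thus held both the highest and the lowest place, and the ranks of both fields were mixed. Exon lengths take in all annotated transcripts, so a gene with a long form that is not used here, such as Nectin3 with 12747 exon bases, may be placed lower than its main form would be.

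**Figure D3:**
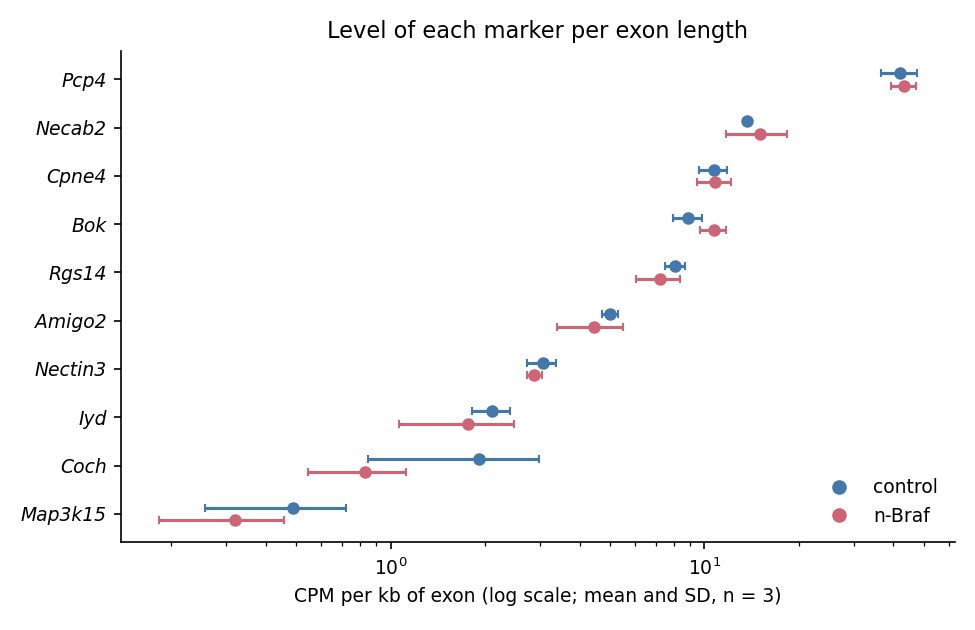
Level of each marker in CPM per kb of exon on a log axis, as mean and SD over 3 control and 3 n-Braf libraries, ordered by the mean of all 6. The markers span from 0.405 (Map3k15) to 42.6 CPM per kb (Pcp4), and the 2 group means lie farthest apart on the log axis in Coch (1.91 and 0.831).

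The markers varied more between the n-Braf libraries than between the controls in 5 of 10 cases, a share of 50% beside 49.2% of the 16897 genes tested with a mean of at least 1 CPM. In CA2 these were Rgs14 (15.9% against 7.31%), Amigo2 (23.7% against 5.92%) and Necab2, and in CA3 Iyd (40% against 13.6%) and Cpne4 (12.1% against 10.1%). The values are coefficients of variation. Within the n-Braf group, n-Braf 2 was the lowest in 6 of 10 markers (Rgs14, Pcp4, Map3k15, Cpne4, Iyd and Nectin3), while it was the lowest in 31.4% of all genes tested. The oldest mouse, n-Braf 3 at 34 weeks, was the highest of the 3 in 6 of 10 (Rgs14, Amigo2, Map3k15, Bok, Cpne4 and Iyd), beside 34.8% of all genes. Necab2 ran the other way, highest in n-Braf 2 and lowest in n-Braf 3.

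Markers of neighbouring fields and tissue differed between the same libraries. The summed level of 10 dentate granule markers was 396 and 408 CPM in n-Braf 1 and 2 and 672 CPM in n-Braf 3, with 478 to 569 CPM in the controls. The 10 neocortical markers ran the other way, at 315, 371 and 261 CPM in n-Braf 1 to 3, with 221 to 324 CPM in the controls. With the mean of the dentate markers as a covariate Rgs14 was at -0.075, Iyd at -0.038 and Necab2 at -0.045. The neocortical list in its place put the 3 at -0.075, -0.020 and -0.040. Necab2 thus changed sign under both covariates. With age as a covariate the differences were larger, at -0.44 for Rgs14 (unadjusted p = 0.00647), -1.71 for Map3k15 (0.00255), -0.97 for Iyd (0.0170) and 0.44 for Necab2 (0.0126), and the adjusted p over the 4 lay between 0.478 and 0.621. Age ran partly with group, at 32, 32 and 31 weeks in controls 1 to 3 and 33, 32 and 34 weeks in n-Braf 1 to 3. A fit with age as a covariate therefore cannot cleanly separate age from group. Age and the field and tissue markers take their highest or lowest n-Braf value in the same library, n-Braf 3, and their parts in these results were not tested.

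**Figure D4:**
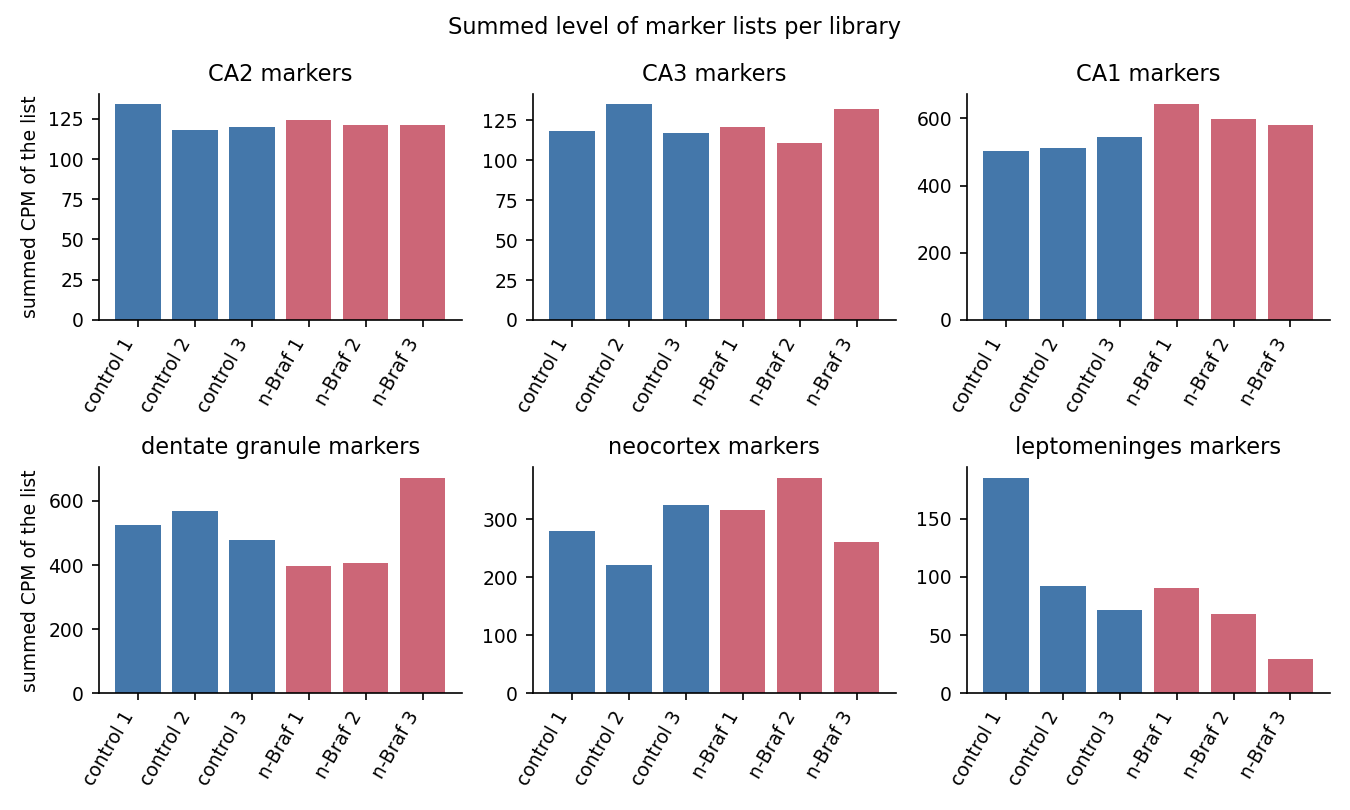
Summed TMM-scaled CPM of 6 marker lists in each library, with axes from 0. The CA2 sum runs from 118 to 134 CPM and the CA3 sum from 111 to 135 CPM. CA1 markers are at 504 to 544 CPM in the controls and 579 to 642 CPM in n-Braf. The dentate, neocortical and leptomeningeal sums also vary between libraries of one group.

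The summed level of the 5 CA2 markers was 124 ± 8.42 CPM in the controls and 122 ± 1.90 CPM in n-Braf, and that of the 5 CA3 markers 123 ± 9.97 and 121 ± 10.4 CPM (SD, n = 3 each). Pcp4 and Cpne4 make up the largest shares of these sums. In the adjoining field CA1, all 10 markers examined had positive log2 fold changes, with a median of 0.22 beside -0.0042 over all genes tested. At an unadjusted p under 0.05 there were 2, beside 6.82% of all genes tested, and 0 were called. The 2 were Ndst3, a heparan sulfate sulfotransferase gene (0.29, SE 0.06, adjusted p = 0.527), and Mpped1 (0.35, SE 0.12, adjusted p = 0.641). Mpped1 was at 0.166 with the neocortical and 0.202 with the dentate covariate and at 0.204 without controls 1 and 2, and at 0.624 with age. Neocortical markers were positive in 9 of 10 genes in the same comparison, and their part in the CA1 values was not tested. Of 10 dentate markers 9 were negative, with a median of -0.175. Calb1, which encodes the calcium buffer calbindin, was the 1 positive gene (0.26, SE 0.10, adjusted p = 0.685), and Plk5 was at -0.47 (SE 0.18, adjusted p = 0.685). Whether the CA2 and CA3 markers differ from these lists was not tested.

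Other genes enriched in CA2, listed apart from the 5 markers, gave 6 positive and 3 negative log2 fold changes among 9 tested, with a median of 0.025 and 0 called. Avpr1b was not analysed here. Ptpn5 encodes STEP, a phosphatase that acts on ERK and glutamate receptors and is abundant in CA2. It was at 65.6, 68.9 and 75.2 CPM in the controls and at 89.5, 96.3 and 83.4 CPM in n-Braf, without overlap (log2 fold change 0.36, SE 0.08, adjusted p = 0.527). DESeq2 gave Ptpn5 an adjusted p of 0.0301, and no other alternative was under 0.05. The next lowest was 0.151, by edgeR without control 3. Its log2 fold change was 0.255 against control 3 alone, 0.263 with the choroid plexus covariate and 0.517 with age as a covariate. Ntf3, the neurotrophin NT-3, was at 4.36, 4.64 and 3.08 CPM against 1.69, 1.51 and 3.34 CPM, so n-Braf 3 again lay with the controls (-0.89, SE 0.32, adjusted p = 0.663). Adora1, an inhibitory adenosine receptor, was at 0.16 (SE 0.07, adjusted p = 0.732).

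The 10 other genes enriched in CA3 had 5 positive and 5 negative log2 fold changes, a median of 0.015 and 0 called, and 0 with an unadjusted p under 0.05. The smallest unadjusted p-values were those of Csf2rb2 at 0.50 (SE 0.28, adjusted p = 0.803), of Kcnq5, a subunit of M-current potassium channels, at 0.13 (SE 0.07, adjusted p = 0.812), and of Dkk3 at 0.09 (SE 0.06, adjusted p = 0.849). Dkk3, a secreted glycoprotein of the Dickkopf family, was at 181, 192 and 192 CPM in the controls and at 197, 198 and 205 CPM in n-Braf, a narrow gap without overlap. Grik4, the kainate receptor subunit of CA3 mossy fibre synapses, was chosen after its values were seen, and had a log2 fold change of -0.01 (SE 0.10, 95% interval -0.23 to 0.22).

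A list of 11 genes that ERK signalling induces or that restrain it was measured in the same libraries. Of these, 11 of 11 had positive log2 fold changes, with a median of 0.47 beside -0.0042 over all genes tested. At an unadjusted p under 0.05 there were 9, beside 6.82% of all genes tested, and 0 were called. The 11 genes were drawn up with their earlier results known, so their direction is not independent evidence. The 10 field markers, with medians of -0.165 and -0.092, are given beside them without a test.

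The genes with the level pattern closest to each field's mean over the 6 libraries were named by the root mean square difference of centred log2 CPM among 13479 candidates. For the CA2 mean these were Pdlim5 (0.024), Prkcsh (0.039) and Sirt6 (0.041), where the CA2 mean itself varied by 0.15. For the CA3 mean they were Serpinb6a (0.041), Cerkl (0.049) and Emp2 (0.054), where the CA3 mean varied by 0.17. In control 1 the CA3 mean was 0.213, with Coch at 1.383 and Iyd at 0.024. Bok, Cpne4 and Nectin3 were there at -0.095, -0.141 and -0.106. The genes named for CA3 thus follow a mean that rests largely on Coch. In the CA2 mean Map3k15 ranged most, from 0.907 in control 1 to -0.91 in n-Braf 2. With 6 libraries and this many candidates such likeness is a description only.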

How the data were processed

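Hippocampal RNA from 6 mice was sequenced after strand-specific SMART-Seq library construction from 10.0 ng of total RNA, per the labels' protocols. The submitters' processing notes name bcl2fastq 2.20, fastp 0.20.1, STAR, RSEM, edgeR 3.36.0 and the build mm10. In the sources used here the strand setting and annotation release are not given. The deposited values are expected counts per gene, not normalized, and every gene listed has at least 3 libraries with a count of 8.75 or more. The authors' deposited table also gives each gene's log2 fold change, mean log2 CPM and p-values.

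Here the counts were rounded, filtered by filterByExpr (minimum count 10), scaled by TMM and tested with edgeR 4.0.16 (quasi-likelihood, R 4.3.3), the model holding group alone. Benjamini-Hochberg adjustment was over all 20604 genes tested, with a threshold of 0.05. Positive log2 fold changes are higher in n-Braf. SE and 95% intervals come from the same fit. Covariates are means of log2 CPM with a prior count of 2. Gene positions and exon lengths were read by gene identifier from GENCODE M21 (GRCm38, which is mm10). The test was checked on simulated counts.

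No 2 libraries were alike within counting noise (chi-square per degree of freedom 8.89 to 69.2), and the labels number each mouse. The pairs that include control 1 were at 51.1 to 69.2, and all other pairs at 8.89 to 14.1. Control 1 also had the largest share of counts that were not whole, 31.4% against 26.2% to 27.9% in the other libraries. What sets control 1 apart was not tested. The markers and lists were chosen with earlier results of these data known. The text names all 10 markers, Braf, the 3 other CA2 and 3 other CA3 genes and the 2 CA1 and 2 dentate markers with the smallest unadjusted p, and 3 genes of closest pattern per field. Grik4 and Slc6a13 were named outside that rule, after their values were seen. Camk2a, named as a further check, differed by 0.16 on the log2 scale (adjusted p = 0.849). Alternatives were other scalings and filters, DESeq2 1.42.0, a replicate block, covariates and left-out libraries. Covariates from the leptomeningeal, dentate and choroid plexus lists were added after seeing the data.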

Additional observations from a re-analysis of the deposited data

How the results depend on the processing

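In all 18 alternatives 0 of the 10 markers were called. The adjusted p of a marker ran down to 0.0855, for Coch by DESeq2. From 1 to 4 of the 10 markers had an unadjusted p under 0.05, beside 2.69% to 7.57% of all genes tested. The 4 were with age as a covariate, where the share of all genes was 6.79%. Rgs14, Bok, Iyd, Coch and Nectin3 kept their direction in all 18. The CA2 median log2 fold change was 0.077 against control 3 alone, a fit that takes its spread from the n-Braf libraries, and 0.10 with the choroid plexus covariate. These 2 fits are not independent, as controls 1 and 2 are the libraries high in choroid plexus markers. Leaving out 1 library at a time, the CA2 median ran from -0.27 to -0.038, and the CA3 median from -0.17 to -0.007. Over all genes the count of calls was 79 by DESeq2, 3 against control 3 alone, 2 with each of the neocortical, leptomeningeal and dentate covariates, and 0 to 82 when 1 library was left out, with 82 only without control 3.

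Signs that turned were those of Cpne4 (-5e-04 by library size alone, -0.169 with age, -0.075 with the leptomeningeal and -0.00063 with the choroid plexus covariate, -0.079 to 0.105 over single left-out libraries), Pcp4 (-0.0058 with the neocortical covariate, -0.041 to 0.144 over left-out libraries), Necab2 (-0.040 and -0.045 with the neocortical and dentate covariates, -0.026 to 0.288 over left-out libraries), Amigo2 (-0.332 to 0.0043 over left-out libraries), Map3k15 (0.398 against control 3 alone, 0.377 with the choroid plexus covariate) and Camk2a (-0.098 with age). The cause was not tested. The deviations of same-numbered libraries had correlations of 0.145, -0.058 and -0.011 over 16897 genes, and those of other pairs ran from -0.196 to 0.232. With 3 libraries a group these values cannot decide whether the numbers pair the mice. With a replicate block 0 genes and 0 markers were called, and the CA2 and CA3 medians were -0.174 and -0.088, with unadjusted p = 0.0638 for Bok and 0.000783 for Coch by edgeR. Counting error was largest among the markers in Map3k15 (14.2%), Iyd (10.6%) and Coch (9.32%). Their coefficients of variation in controls and n-Braf were larger: 47.5% and 42.9% for Map3k15, 13.6% and 40% for Iyd, 55.2% and 34.6% for Coch.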
